A study of Mus musculus with 4 samples.

Results

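The 10 genes described here carry out or control antigen presentation by MHC class II. They were chosen by name, with earlier results of these data known. They are the rows of the deposited count table whose Entrez identifiers belong to H2-Aa, H2-Ab1, H2-Eb1, H2-DMa, H2-DMb1, H2-DMb2, H2-Oa, H2-Ob, Cd74 and Ciita. All 10 of the named genes were found among the 24415 rows, and all 10 passed the filter on low counts that left 14043 genes for testing. RNA had been sequenced from bone marrow cells of mice that carry an inducible, constitutively active HIF-1α (genotype "inducible HIF-1a", 2 libraries) and from wild-type mice (2 libraries). HIF-1α is the subunit of the transcription factor HIF-1 that is stabilised when oxygen is low. Both genotypes were on a background given as C57BL/6, 129X1/SvJ, and in both the cells were selected with magnetic beads against CD117 (KIT), a receptor of hematopoietic stem and progenitor cells. The inducer, the promoter that drives the HIF-1α form, the time after induction, age and the number of mice per library are not given. The p-values therefore measure the spread between libraries, which may be technical.

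Class II molecules are pairs of an α and a β chain that present peptides from endosomes to CD4 T cells. In the mouse the presenting pairs are I-A, encoded by H2-Aa and H2-Ab1, and I-E, whose β chain is encoded by H2-Eb1. New pairs bind the invariant chain Cd74, which is cut down to a fragment that H2-DM exchanges for antigen peptides, and H2-DO holds H2-DM back. The coactivator CIITA switches the whole set on without touching DNA itself: it docks on the RFX, NF-Y and CREB factors that sit on a shared promoter module, the X and Y boxes. In bone marrow these genes are known mainly from B cells, dendritic cells and macrophages rather than from stem cells.

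The shared module can be read in the promoters of several of the 10 genes. RefSeq windows of 250 bases before to 50 bases after the annotated start (build GRCm38.p6) were matched for 7 of the 10 genes. The stretches below run from position -120 to position -6 before the start of 3 of them, the called genes H2-Eb1 and H2-Ob and the I-A chain gene H2-Aa. They were chosen because their windows hold the elements marked in capitals and no annotated exon overlaps the stretches. A further stretch without exon overlap, before H2-DMa, lacked the pair of elements and is not shown. Capitals mark AAC, part of the X box, and ATTGG, the Y box bound by NF-Y. H2-Eb1 lies on the plus strand (chr17:34305747-34305861), H2-Ob on the plus strand (chr17:34238785-34238899) and H2-Aa on the minus strand (chr17:34287829-34287943).
H2-Eb1: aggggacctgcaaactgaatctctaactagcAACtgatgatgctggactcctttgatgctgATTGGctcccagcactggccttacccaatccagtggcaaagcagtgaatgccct
H2-Ob: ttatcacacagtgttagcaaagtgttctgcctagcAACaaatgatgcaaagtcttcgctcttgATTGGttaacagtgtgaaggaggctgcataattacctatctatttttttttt
H2-Aa: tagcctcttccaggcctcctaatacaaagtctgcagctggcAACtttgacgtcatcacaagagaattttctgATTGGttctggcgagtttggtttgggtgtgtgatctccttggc

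In these 3 stretches the first base of ATTGG lay 28 to 31 bases after the first base of AAC, and ATTGG began at -59 in H2-Eb1, -57 in H2-Ob and -48 in H2-Aa. The same pair was found in the windows of H2-DMb1, H2-DMb2 and H2-Oa, at a distance of 31 bases in each. A search for AAC followed by ATTGG 25 to 35 bases on, on either strand, matched 6 of 8 windows of the class II genes and 6.12% of 32851 promoter windows of that length. The distance was set with the class II sequences in view, so the share is a description. Neither of the 2 windows annotated for H2-DMa held the pair. The core letters of hypoxia response elements, ACGTG or GCGTG on either strand, were in none of the 8 windows and in 43.8% of all windows, which says only that these letters are not in these windows.

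The β chain genes H2-Ab1, H2-Eb1 and H2-Ob, the last of the modulator H2-DO, fell in the inducible HIF-1α libraries. Their means in wild type were 4.46-fold (H2-Ab1), 5.98-fold (H2-Eb1) and 3.46-fold (H2-Ob) those in inducible HIF-1α. The means of the α chain gene H2-Aa and of Cd74 differed by 4.87-fold and 5.7-fold in the same direction without passing the test. Of the 10 genes, 3 fell past the threshold (H2-Eb1, H2-Ab1 and H2-Ob) and none rose. Over all 14043 genes tested 1.0% were called lower and 0.114% higher. The test was edgeR's quasi-likelihood test with Benjamini-Hochberg adjustment over all genes tested and a threshold of 0.05. At an unadjusted p under 0.05, 6 of the 10 were lower and 0 higher, where 1609 of the 14043 genes were lower and 764 higher. In bulk samples, fewer cells of a type and less RNA per cell cannot be told apart. The median log2 fold change (inducible HIF-1α over wild type) was -1.73 over the 10 genes and 0.00 over all genes tested. For 9 of the 10 genes both inducible HIF-1α libraries were below both wild-type libraries, where 28.2% of all genes were separated in that direction, and H2-DMa was the exception. Levels below are CPM (a gene's counts over the TMM-scaled library size in units of 1000000 counts), and the 2 values of a group are its replicates 1 and 2.

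**Figure D1:**
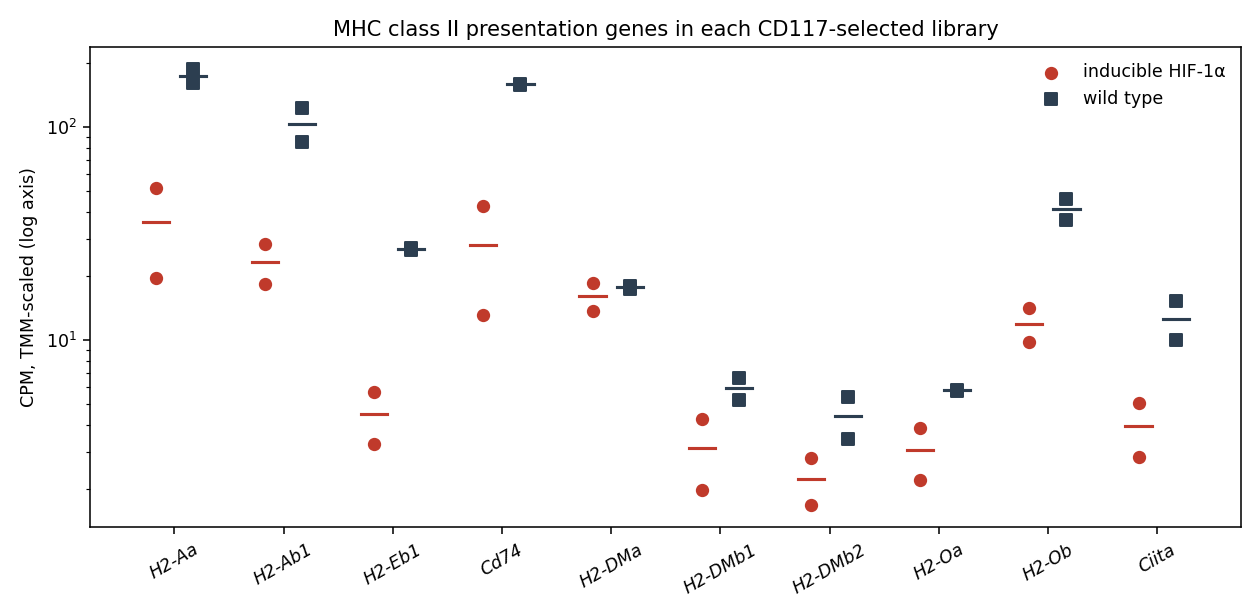
CPM of the 10 genes (log axis) in each library, with inducible HIF-1α as circles and wild type as squares; short bars are group means of 2 libraries. For 9 genes the circles lie below the squares, and for H2-DMa (18.5 and 13.7 against 18 and 17.4 CPM) they overlap.

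Libraries held between 22221798 and 27539149 counts. A gene at 0 counts may lie as high as 3 counts, or 0.112 to 0.138 CPM, counting error only. Kit, which encodes CD117, was at 347 and 390 CPM in the inducible HIF-1α libraries and 268 and 242 CPM in wild type, so transcripts of the selected receptor were abundant in all 4 libraries. Hif1a was at 155 and 113 CPM in inducible HIF-1α and 179 and 168 CPM in wild type (log2 fold change -0.38 ± 0.21 (SE), adjusted p = 0.426), and whether its row includes the induced form is not given. The inducible HIF-1α libraries differed from each other: replicate 2 had 30.7% (Cd74) to 74% (H2-DMa) of the CPM of replicate 1, lower for all 10 genes. Between the wild-type libraries the corresponding range was 63.1% (H2-DMb2) to 152% (Ciita).

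H2-Aa, the I-A α chain gene (Entrez 14960; chromosome 17, 34282744 to 34287823), had 52 and 19.6 CPM in the inducible HIF-1α libraries and 161 and 187 CPM in wild type. The groups were far apart, but the inducible HIF-1α libraries also differed from each other, and the log2 fold change of -2.28 ± 0.43 (SE) did not pass the threshold (adjusted p = 0.0729). H2-Ab1, the I-A β chain gene (Entrez 14961; chromosome 17, 34263227 to 34269418), had 28.2 and 18.4 CPM in inducible HIF-1α and 84.9 and 123 CPM in wild type. It fell by 2.16 ± 0.30 on the log2 scale (adjusted p = 0.0291). H2-Eb1, the I-E β chain gene (Entrez 14969; chromosome 17, 34305867 to 34316674), had 5.73 and 3.26 CPM in inducible HIF-1α and 27.1 and 26.6 CPM in wild type. Its wild-type libraries were nearly equal, and it had the smallest p of the 10 genes, with a log2 fold change of -2.58 ± 0.33 (adjusted p = 0.0235).

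The I-E α chain gene H2-Ea, listed by RefSeq as a transcribed pseudogene, had 0 counts in all 4 libraries. No transcript of the α partner of H2-Eb1 was thus seen, and the values of H2-Eb1 do not show that an I-E pair was made. H2-Eb1 is counted among the presenting chain genes by its name alone. H2-Eb2, a further β chain gene beside H2-Eb1, had 10 and 3 counts in inducible HIF-1α and 115 and 122 counts in wild type. It fell by 4.29 ± 0.67 on the log2 scale (adjusted p = 0.0429). Its call did not hold with total-count scaling (0.0661), DESeq2-type size factors (0.0516) or limma-voom (0.0681), without the 10 most abundant genes (0.0582), or without either wild-type library (0.488 and 0.788). In these fits its log2 fold change stayed between -4.45 and -4.08.

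Cd74, the invariant chain gene (Entrez 16149; chromosome 18, 60803849 to 60812652), had 42.6 and 13.1 CPM in the inducible HIF-1α libraries and 157 and 160 CPM in wild type. Wild type agreed closely (159 ± 1.5 CPM, SD, n = 2), while inducible HIF-1α averaged 27.8 ± 20.9 CPM. Its log2 fold change of -2.51 ± 0.50 was almost as large as that of H2-Eb1 but did not pass (adjusted p = 0.0832). The ratio of Cd74 counts to the summed counts of H2-Aa, H2-Ab1 and H2-Eb1 was 0.495 and 0.316 in inducible HIF-1α and 0.576 and 0.473 in wild type. These ratios overlapped between the genotypes (two-sided exact permutation test over libraries, p = 0.667), so a change of the invariant chain relative to its client chains was not detectable with 2 libraries each.

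The peptide editor H2-DM is a pair of an α chain from H2-DMa and a β chain from H2-DMb1 or H2-DMb2. H2-DMa (Entrez 14998; chromosome 17, 34119693 to 34139101) had 18.5 and 13.7 CPM in the inducible HIF-1α libraries and 18 and 17.4 CPM in wild type. This was the one gene of the 10 whose groups overlapped, with a log2 fold change of -0.13 ± 0.25 (adjusted p = 0.833), and the sign turned (0.10) without inducible HIF-1α replicate 2. H2-DMb1 (Entrez 14999; chromosome 17, 34153191 to 34160229) had 4.26 and 1.98 CPM in inducible HIF-1α and 6.64 and 5.26 CPM in wild type. H2-DMb2 (Entrez 15000; chromosome 17, 34143229 to 34151553) had 2.79 and 1.68 CPM in inducible HIF-1α and 5.41 and 3.42 CPM in wild type. Neither β chain gene passed, at -0.93 ± 0.46 (adjusted p = 0.365) for H2-DMb1 and -0.98 ± 0.48 (adjusted p = 0.352) for H2-DMb2.

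H2-DM genes share sequence with each other or with a neighbour, which touches these values. The H2-DMb1 and H2-DMb2 transcripts were 94.4% identical over 1255 aligned bases, and 27.2% of the 50-base windows of H2-DMb1 also occurred in H2-DMb2, so the split of counts between the copies is uncertain. H2-DMa shares 360 exon bases with Brd2, a bromodomain gene on the opposite strand. Brd2 had 3103 and 3038 counts in inducible HIF-1α and 2880 and 2345 counts in wild type, against 478 and 366 counts of H2-DMa in inducible HIF-1α and 482 and 376 in wild type. The strand setting of the counting is not given, so reads of the shared stretch cannot be told apart, and the part of Brd2 reads in the H2-DMa values was not tested.

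Ratios within a library do not depend on its scaling. The ratio of the 3 H2-DM genes to the 3 presenting chain genes was 0.297 and 0.42 in the inducible HIF-1α libraries and 0.11 and 0.0772 in wild type, 3.84-fold higher on average. Its DM sum is weighted to H2-DMa in each library, whose row may hold Brd2 reads. Both inducible HIF-1α ratios were above both wild-type ratios, which gives p = 0.333 in a two-sided exact permutation test, the smallest p that 2 libraries against 2 allow. The ratio of H2-DMa to the β chain genes H2-DMb1 and H2-DMb2, computed after their values were seen, was 2.63 and 3.73 in inducible HIF-1α and 1.49 and 2 in wild type, also without overlap (exact permutation p = 0.333).

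H2-DO, the modulator of H2-DM, is a pair encoded by H2-Oa and H2-Ob. H2-Oa (Entrez 15001; chromosome 17, 34092379 to 34095234) had 3.87 and 2.21 CPM in the inducible HIF-1α libraries and 5.78 and 5.86 CPM in wild type. Its difference of -0.94 ± 0.41 on the log2 scale did not pass (adjusted p = 0.315), and 321 of its exon bases lie over the antisense gene BC051537. H2-Ob (Entrez 15002; chromosome 17, 34238905 to 34245908) had 14.1 and 9.84 CPM in inducible HIF-1α and 46.2 and 36.6 CPM in wild type. H2-Ob fell by 1.79 ± 0.27 on the log2 scale (adjusted p = 0.0387), the β chain of the modulator thus passing the test where its α chain did not; the difference between these 2 changes was not tested. The summed DO genes relative to the summed DM genes gave ratios of 0.703 and 0.694 in inducible HIF-1α and 1.73 and 1.63 in wild type (p = 0.333, exact permutation test, the smallest possible). Within each genotype the 2 libraries gave nearly equal values of this ratio. Its sums are weighted to H2-Ob (364 and 263 counts in inducible HIF-1α, 1237 and 792 in wild type) and to H2-DMa, which may hold Brd2 reads. The less abundant chains H2-Oa, H2-DMb1 and H2-DMb2 had log2 fold changes close to each other (-0.94, -0.93 and -0.98), so the ratio mainly sets H2-Ob against H2-DMa.

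**Figure D2:**
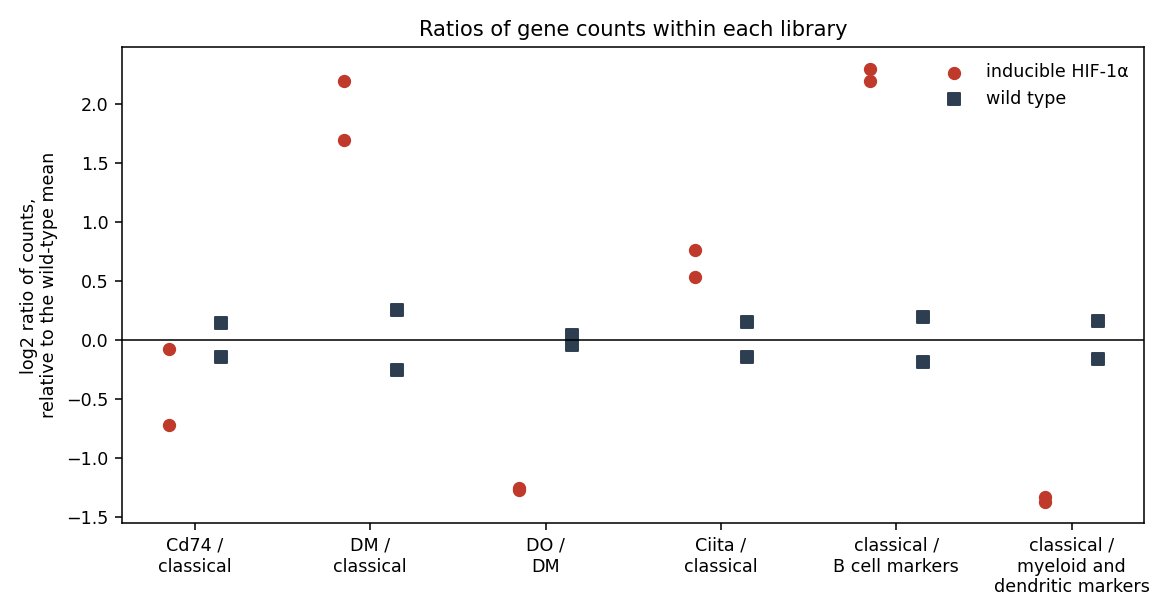
Ratios of counts within each library, on a log2 scale relative to the mean of the wild-type libraries (line at 0), for inducible HIF-1α (circles) and wild type (squares); classical is the sum of H2-Aa, H2-Ab1 and H2-Eb1. The DM to classical ratio lies above and the DO to DM ratio below wild type in both inducible HIF-1α libraries, while Cd74 to classical overlaps. The DM sum is weighted to H2-DMa, which may hold Brd2 reads.

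Ciita, the coactivator gene (Entrez 12265; chromosome 16, 10480014 to 10531064), had 5.07 and 2.84 CPM in the inducible HIF-1α libraries and 10 and 15.2 CPM in wild type. The groups did not overlap, but the log2 fold change of -1.67 ± 0.40 did not pass (adjusted p = 0.119). Relative to the presenting chains, Ciita counts were higher in inducible HIF-1α (ratios 0.059 and 0.0688) than in wild type (0.0367 and 0.0452), without overlap (exact permutation p = 0.333). Ciita shares 329 exon bases with Dexi on the opposite strand, whose row had 69 and 176 counts in inducible HIF-1α and 193 and 139 counts in wild type.

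**Figure D3:**
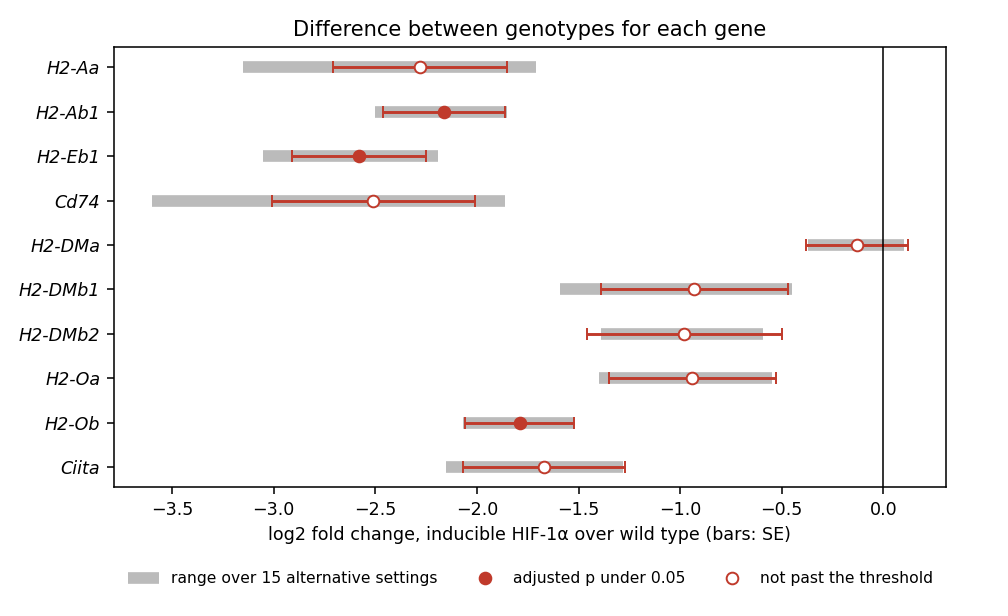
Log2 fold change of each gene, inducible HIF-1α over wild type, with its SE; filled circles passed the threshold and grey bars span 15 alternative settings. H2-Eb1, H2-Ab1 and H2-Ob passed, H2-Aa and Cd74 have values as large with wider error, and H2-DMa lies at -0.13.

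With 1 wild-type library left out, no class II gene was called, while the sizes of the changes stayed close to those above. Without wild-type replicate 1, 6 of the 10 were lower at an unadjusted p under 0.05, where 750 of 14464 genes were, and edgeR called 2 genes lower over all (0.0138%). Without wild-type replicate 2, 5 were lower at that p, where 595 of 14543 genes were, and edgeR called none over all. The log2 fold changes in these 2 fits were -2.54 and -2.59 for H2-Eb1, -2.38 and -1.87 for H2-Ab1, and -1.59 and -1.95 for H2-Ob. In fits that leave 1 library in a group, that library is assumed to vary like the other group. Without inducible HIF-1α replicate 1, the higher of that pair, 9 of the 10 were called lower, where 19.7% of all genes were. Without inducible HIF-1α replicate 2, 6 were called lower, where 7.64% of all genes were. The log2 fold change of Cd74 was -3.60 and -1.86 in these 2 fits without an inducible HIF-1α library, that of H2-Aa -3.15 and -1.71, and that of H2-Ab1 -2.50 and -1.85. DESeq2 and edgeR's exact test each called 6 of the 10 lower, where they called 5.69% and 6.62% of all genes lower, and limma-voom called 5, where it called 1.36%. Without a filter on low counts 6 were lower (3.55% of all genes), and at an adjusted p under 0.1, 5 were (2.62%). With at least 1 CPM required in all 4 libraries 2 were lower (0.590% of all genes), and without the 10 most abundant genes 2 were (0.705%); H2-Ob was the one lost. With total-count scaling 1 was lower (0.605% of all genes): H2-Eb1 stayed called (adjusted p = 0.0418), and H2-Ab1 (0.0538) and H2-Ob (0.0641) did not.

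Per kilobase of transcript, the order of levels was led by H2-Aa, Cd74 and H2-Ab1 in both genotypes, and Ciita had the lowest mean in both, although in wild type its libraries overlapped those of H2-DMb2. In inducible HIF-1α, H2-Aa was at 31.7 ± 20.3, Cd74 at 19.7 ± 14.8 and H2-Ab1 at 19.2 ± 5.72 CPM per kilobase (SD, n = 2), and the libraries of neighbours in this order overlapped. In wild type H2-Aa was at 154 ± 16.3, Cd74 at 113 ± 1.06 and H2-Ab1 at 85.8 ± 22.4 CPM per kilobase, with no overlap between neighbours. H2-DMa stood at rank 4 in inducible HIF-1α (9.71 ± 2.06) and at rank 6 in wild type (10.7 ± 0.27). Next to it in inducible HIF-1α came H2-Ob (4.49 ± 1.13), without overlap. In wild type H2-Eb1 (16.1 ± 0.196) and H2-Ob (15.5 ± 2.54) stood above it and overlapped each other. H2-Oa, H2-Eb1 and H2-DMb1, at ranks 6 to 8 in inducible HIF-1α, could not be ranked apart, nor could H2-DMb1 and H2-DMb2 in either genotype. Ciita was at 0.659 ± 0.263 CPM per kilobase in inducible HIF-1α and 2.10 ± 0.611 in wild type. As a share of the counts of the 10 genes, H2-DMa took 10.5% and 15.8% in inducible HIF-1α and 3.4% and 3.0% in wild type.

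The DNA-binding factors through which CIITA acts showed no called change with all 4 libraries. None of the 7 genes for RFX, NF-Y and CREB subunits was called in either direction by edgeR, DESeq2 or limma-voom, none had an unadjusted p under 0.05, and their median log2 fold change was -0.05. Rfx5, an RFX subunit gene, had 57.4 and 51.9 CPM in inducible HIF-1α and 51.4 and 61.9 CPM in wild type. Rfxap, with the smallest p of the list, was at 11.1 and 12.2 CPM in inducible HIF-1α and 8.70 and 5.91 CPM in wild type (adjusted p = 0.333). The log2 fold change of Rfxap was 0.67 with all 4 libraries and between 0.42 and 0.99 when 1 library was left out. It was called higher without inducible HIF-1α replicate 1, a fit in which many genes over all were called higher.

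Some regulators of the Ciita promoters fell further than the class II genes named above. Of 15 such genes 3 were called lower and 0 higher, and the median log2 fold change was -0.67. Spib, an ETS family factor active in B cells, had 1.90 and 2.06 CPM in inducible HIF-1α and 130 and 133 CPM in wild type (-6.05 ± 0.23, adjusted p = 0.000526). Irf4, a factor of activated B cells and dendritic cells, had 4.69 and 1.09 CPM in inducible HIF-1α and 73.1 and 97.7 CPM in wild type (-4.89 ± 0.62, adjusted p = 0.0235). Pax5, the B cell commitment factor, had 0 counts over the inducible HIF-1α libraries and 372 over wild type, at least 134-fold lower against 3 counts over the group.

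Among 11 genes of endosomal processing 1 was called lower and 0 higher (median -0.52). This was Lgmn, an asparagine-specific endopeptidase, at 3.91 and 3.37 CPM in inducible HIF-1α and 15.8 and 16.8 CPM in wild type (-2.16 ± 0.28, adjusted p = 0.0236). Ctss, the protease that removes the invariant chain, had 10.2 and 3.93 CPM in inducible HIF-1α and 33.2 and 37.5 CPM in wild type (-2.32 ± 0.44), not past the threshold (adjusted p = 0.072). Sppl2a, which clears the last invariant chain fragment from the membrane, was at 204 and 236 CPM in inducible HIF-1α and 214 and 197 CPM in wild type (adjusted p = 0.826). Of 3 genes of class II turnover, Cd83, which protects surface class II from ubiquitination, fell to 0.465 and 0.561 CPM in inducible HIF-1α, against 7.84 and 7.02 CPM in wild type (-3.84 ± 0.43, adjusted p = 0.017). Marchf1 was also lower, at 14.3 and 5.09 CPM in inducible HIF-1α and 34.7 and 26.1 CPM in wild type, without passing (-1.65 ± 0.47, adjusted p = 0.164). Marchf8, the remaining gene of this list, had a log2 fold change of 0.08. None of 6 costimulation genes was called by edgeR's quasi-likelihood test (3 lower at an unadjusted p under 0.05). DESeq2 and the exact test each called 2 lower. Cd40, with the smallest p, had 8 and 0 counts in inducible HIF-1α and 66 and 89 counts in wild type (adjusted p = 0.129). The calls in these lists moved with single libraries too. Without wild-type replicate 1, 1 regulator of the Ciita promoters was called lower and 0 genes of endosomal processing, turnover or costimulation were, and without wild-type replicate 2 none was called in the 4 lists. When either inducible HIF-1α library was left out, more genes of each of the 4 lists were called lower, and calls higher occurred too. Over all genes tested, calls in both directions were also more numerous in these fits, whose spread comes from the wild-type pair alone.

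No gene of MHC class I presentation was called in either direction. None of 14 class I genes was called by edgeR, DESeq2 or limma-voom, 0 had an unadjusted p under 0.05, and their median log2 fold change was 0.22, with 10 positive values. Their summed level was 4550 and 3040 CPM in inducible HIF-1α and 3270 and 3430 CPM in wild type, so the inducible HIF-1α libraries lay on either side. Nlrc5, the class I counterpart of Ciita, had 108 and 16.4 CPM in inducible HIF-1α and 25.1 and 31.5 CPM in wild type (adjusted p = 0.48). B2m, the class I light chain, had 751 and 280 CPM in inducible HIF-1α and 392 and 328 CPM in wild type (adjusted p = 0.576). Erap1, a peptide trimming enzyme with the smallest p of this list, was at 294 and 164 CPM in inducible HIF-1α and 174 and 158 CPM in wild type (adjusted p = 0.463). When an inducible HIF-1α library was left out, class I genes were called, higher without replicate 2 and lower without replicate 1. Over all genes tested, calls in both directions were also more numerous in these 2 fits. Each of these 2 fits has a single inducible HIF-1α library, so its spread comes from the wild-type pair alone. H2-K1, H2-D1 and other class I genes have near copies, and their single values are uncertain.

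Markers of several cell types that carry class II fell in the same libraries, in unequal numbers. Of 12 B cell markers 9 fell and none rose, the median was -4.62, and their summed level was 28.6 and 14.7 CPM in inducible HIF-1α and 508 and 482 CPM in wild type. Ms4a1, encoding CD20, had 1.20 and 1.01 CPM in inducible HIF-1α and 108 and 91.7 CPM in wild type. Cd72, a B cell surface receptor gene, was at 4.76 and 3.29 CPM in inducible HIF-1α and 27 and 30.3 CPM in wild type. Only Pax5 of the 12 was at 0 in both inducible HIF-1α libraries. Nearly all calls of the B cell markers were lost when a wild-type library was left out, as were nearly all calls over all genes. More were called lower when either inducible HIF-1α library was left out, as were more genes over all.

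Monocyte and macrophage markers came to 15 tested genes, of which 7 were called lower and 0 higher (median -1.49; 3 lower by limma-voom, 12 by DESeq2 and 12 by the exact test). Their sums were 1110 and 470 CPM in inducible HIF-1α and 1680 and 1690 CPM in wild type. Axl had 4.92 and 4.23 CPM in inducible HIF-1α and 61.4 and 61.9 CPM in wild type, Adgre1, encoding F4/80, 3.25 and 2.17 CPM in inducible HIF-1α and 24.1 and 26.1 CPM in wild type, and Mrc1 3.06 and 1.23 CPM in inducible HIF-1α and 44.1 and 40.2 CPM in wild type. These calls were lost when either wild-type library was left out. More of the markers were called lower when either inducible HIF-1α library was left out, and without replicate 2 a marker was called higher too. Mertk had 1 count in each inducible HIF-1α library and 97 and 139 counts in wild type. Ccr2 and Ly6c2, genes of monocytes, were not called by edgeR's quasi-likelihood test. Ccr2 had 510 and 247 CPM in inducible HIF-1α and 858 and 915 CPM in wild type (adjusted p = 0.154), and Ly6c2 393 and 118 CPM in inducible HIF-1α and 309 and 232 CPM in wild type (adjusted p = 0.951).

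Of 7 tested plasmacytoid dendritic cell markers 2 fell and none rose: Siglech had 2.01 and 2.13 CPM in inducible HIF-1α and 11.3 and 13.2 CPM in wild type, and Ly6d, which B cells also express, 0.387 and 0.112 CPM in inducible HIF-1α and 13.5 and 13.2 CPM in wild type. The plasmacytoid sums were 310 and 214 CPM in inducible HIF-1α and 331 and 297 CPM in wild type. Most of them came from Tcf4 (156 and 146 CPM in inducible HIF-1α, 156 and 147 CPM in wild type) and Runx2 (142 and 59.4 CPM, then 142 and 112 CPM). Bst2 was the tested marker with a positive log2 fold change (0.56), not called. Klk1 and Pacsin1 were at 0 in both inducible HIF-1α libraries, but Klk1 had only 3 and 0 counts in wild type and was not tested. When either wild-type library was left out, 0 plasmacytoid markers were called. More of them were called lower when either inducible HIF-1α library was left out, as were more genes over all. None of 7 tested conventional dendritic cell markers was called by edgeR's quasi-likelihood test (2 lower and 1 higher at an unadjusted p under 0.05). DESeq2 and the exact test each called 2 lower. Some were called when either inducible HIF-1α library was left out, and without replicate 1 in both directions, as were many genes over all. Their sums were 36 and 34.8 CPM in inducible HIF-1α and 43 and 49 CPM in wild type. Xcr1, a marker of cross-presenting dendritic cells, was at 11.9 and 11 CPM in inducible HIF-1α and 11.5 and 15 CPM in wild type, and Itgax, encoding CD11c, had the smallest p at 4.15 and 3.89 CPM in inducible HIF-1α and 11.9 and 11.7 CPM in wild type (adjusted p = 0.072). None of 7 stem and progenitor markers was called by edgeR, DESeq2 or limma-voom (2 higher at an unadjusted p under 0.05). Without inducible HIF-1α replicate 1 some were called in both directions, as were many genes over all. Slamf1 had the smallest p, at 5.11 and 7.63 CPM in inducible HIF-1α and 1.94 and 3.28 CPM in wild type (adjusted p = 0.216).

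**Figure D4:**
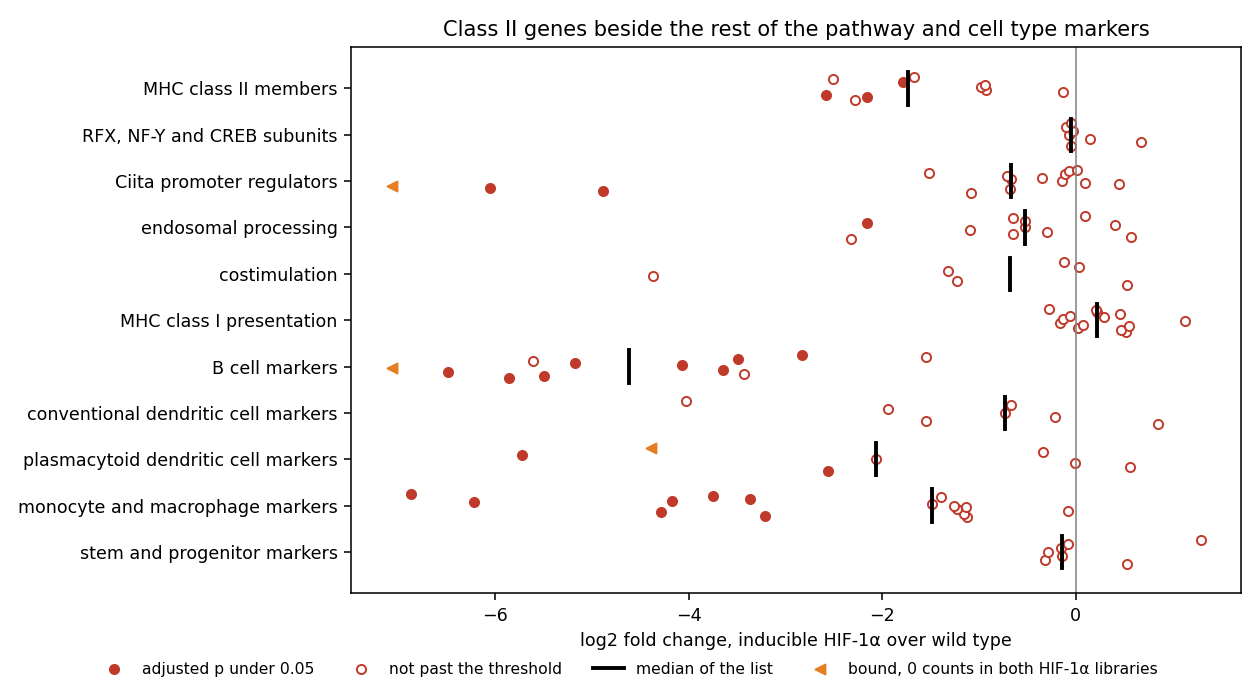
Log2 fold changes (inducible HIF-1α over wild type) of the tested genes of the lists shown. Filled circles passed the threshold, vertical bars are list medians, and triangles are bounds for genes at 0 counts in both inducible HIF-1α libraries. H2-Eb2 and the genes of class II turnover, with Cd83, are not drawn. Pax5 is drawn both with the regulators of the Ciita promoters and with the B cell markers. The class II genes (median -1.73) lie between the B cell markers (-4.62) and the class I genes (0.22); the values of Mertk and C1qa rest on 2 and 3 counts.

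The presenting chains were also set against the summed counts of these markers within each library. The ratio of summed H2-Aa, H2-Ab1 and H2-Eb1 counts to summed B cell marker counts was 3.01 and 2.81 in inducible HIF-1α and 0.538 and 0.7 in wild type, 4.74-fold higher on average. Their ratio to the summed dendritic, monocyte and macrophage markers was 0.0591 and 0.0574 in inducible HIF-1α and 0.133 and 0.166 in wild type, 0.393-fold on average. That sum is weighted to abundant genes, with Ccr2 alone at 510 and 247 CPM in inducible HIF-1α and 858 and 915 CPM in wild type. Axl (-3.75), Adgre1 (-3.21) and Mrc1 (-4.29) had log2 fold changes beyond those of the presenting chains (-2.58 to -2.16), so relative to these 3 macrophage genes the direction is the opposite. They are not typical of their list: the median over the 15 tested monocyte and macrophage markers was -1.49, a smaller fall than that of the presenting chains. Neither ratio overlapped between the genotypes (p = 0.333 for both, two-sided exact permutation test, the smallest possible with 2 libraries each). Over the 9 ratios computed, the Benjamini-Hochberg adjusted exact p was 0.429 for the 7 ratios without overlap and 0.667 for the other two. The part of these cell types in the class II values was not tested.

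Genes were also ranked by the likeness of their pattern over the 4 libraries to the mean of H2-Aa, H2-Ab1, H2-Eb1 and Cd74. Likeness was the Euclidean distance of centred log2 CPM, with genes below an average log2 CPM of 3 left out. The 5 nearest were Thbs1 (thrombospondin-1, distance 0.0613), the myeloid receptor genes Cd300ld (0.12) and Cd300lb (0.137), the neutrophil collagenase gene Mmp8 (0.14) and Ctss (0.169), while H2-Ab1 itself lay at 0.554 and H2-DMa at 2.40. Mmp8 had 144 and 58.3 CPM in inducible HIF-1α and 510 and 543 CPM in wild type. Its level in inducible HIF-1α replicate 2 was 40.5% of that in replicate 1, near the 37.8% of H2-Aa and below the 56.8% of H2-Eb1 and 65.3% of H2-Ab1. Thbs1 had 47.5 and 22.3 CPM in inducible HIF-1α and 167 and 201 CPM in wild type.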

How the data were processed

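The deposited table holds raw counts per Entrez gene, 1 column per library (2 inducible HIF-1α, 2 wild type). Per the submitters' processing notes, the tools were bcl2fastq, CASAVA 1.8, TopHat and edgeR, with build mm10; the counting tool, strand setting and treatment of multi-mapped reads are not given. RefSeq gave symbols for the identifiers (GRCm38.p6; 24334 of 24415). Genes passing filterByExpr (minimum count 10) were TMM-scaled and tested over all 4 libraries without a block by edgeR 4.0.16 (glmQLFit, glmQLFTest; R 4.3.3); the SE is the log2 fold change over the square root of F. In data simulated for this comparison over 13740 genes, 100 of 100 genes changed by 3 on the log2 scale and 73 of 100 changed by 1.5 were recovered, with 11 false calls. The changed genes were drawn only from those above a floor on mean CPM, which H2-DMb1, H2-DMb2 and H2-Oa did not reach. Recovery at their levels was not simulated. Levels per kilobase use the longest RefSeq-paired transcript in GENCODE M21. Members and gene lists were chosen with earlier results of these data known. Named were the 10 genes, up to 4 called genes per list or else the one with the smallest p, and the 5 nearest patterns; other genes named, and 3 added ratios, were chosen after their values were seen. DESeq2 1.42.0, limma-voom (3.58.1), edgeR's exact test, other scalings and filters, a replicate block and leaving out each library were alternatives. Some genes that the naming rule selects are not reported here.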

Additional observations from a re-analysis of the deposited data

How the results depend on the processing

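As reported, edgeR called 3 class II genes lower (H2-Ab1, H2-Eb1, H2-Ob), and 16 genes higher and 141 lower in all. Class II genes called lower numbered 1 with total-count scaling, 2 with at least 1 CPM in all 4 libraries or without the 10 most abundant genes, 5 with limma-voom or at an adjusted p under 0.1, 6 with DESeq2, the exact test or no filter, and 0 to 9 when 1 library was left out. Over all genes, the counts higher and lower were 12 and 85 with total-count scaling, 172 and 799 with DESeq2, 191 and 930 with the exact test, 119 and 628 without a filter, 9 and 69 with at least 1 CPM in all 4 libraries, 41 and 368 at an adjusted p under 0.1, and 0 to 1798 higher and 0 to 2871 lower when 1 library was left out. Without wild-type replicate 2, where edgeR called 0 genes, 703 had an unadjusted p under 0.05. With the replicate number as a block, 5 class II genes lower (2.47% of all genes), 34 genes higher and 347 lower were called, but same-numbered libraries deviated together only weakly (correlation 0.0794) and share only a number. The log2 fold changes of 9 class II genes stayed negative under all 15 alternatives; H2-DMa ranged over -0.37 to 0.10 when 1 library was left out, positive without inducible HIF-1α replicate 2, and Erap1 over -0.02 to 0.86, negative without inducible HIF-1α replicate 1. All 6 planned ratios kept their direction per kilobase and without each library. The causes of these shifts were not tested. Adjusted p over the alternatives ran from 2.57e-22 to 0.578 for H2-Eb1, 1.74e-27 to 0.596 for H2-Ab1 and 4.84e-15 to 0.592 for H2-Ob. Depth does not limit the presenting chains, the least of which had 87 counts in a library, but H2-DMb2 had as few as 45.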
